A study of Homo sapiens with 12 samples.

Results

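The SLC25 family comprises the carriers that move metabolites across the inner mitochondrial membrane. Its members were taken as every row of the deposited expression table whose gene symbol begins with SLC25A and a number, which gave 49 of 17520 genes. Of these, 48 were carrier genes and 1 was the antisense RNA SLC25A21-AS1. A carrier is a single polypeptide built from 3 similar repeats, and it exchanges or co-transports one class of solute, such as ADP and ATP, phosphate, carboxylates, amino acids, nucleotides, cofactors or glutathione. Carriers are encoded in the nucleus, made in the cytosol and inserted into the inner membrane by the TIM22 complex, and several solutes are served by closely related pairs of genes. A few members sit elsewhere, such as SLC25A17 in the peroxisomal membrane and SLC25A46 in the outer mitochondrial membrane.

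The cells were HEK293E, a derivative of the human embryonic kidney line HEK293 that carries the Epstein-Barr virus nuclear antigen. All cultures were starved of serum overnight and then received 200 nM insulin for 30 h. One condition received insulin only and the other also Torin1 at 250 nM, which blocks the kinase mTOR, added before the insulin, so that insulin and starvation were common to both. The study had 12 samples in 4 groups of 3, namely input RNA and miCLIP libraries for each condition. In miCLIP an antibody to N6-methyladenosine (m6A) is crosslinked to the RNA and leaves substitutions in the reads beside the methylated adenosine. The labels speak of biological triplicates but do not say that each came from its own culture, so p-values measure the spread between these libraries, which may be technical. No group without insulin and no Torin1 group without insulin was analysed here.

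Expression values were read counts that the authors had scaled between libraries and rounded, and are given here as normalised units. Totals were 12424643 to 12528454 units in the insulin libraries and 11418114 to 11438881 in the insulin+Torin1 libraries, called Torin1 libraries below. The 49 rows held 0.323% to 0.332% of all units with insulin and 0.376% to 0.380% with Torin1. A unit is a scaled read count over the pooled RNA of a library, so less of an mRNA per cell and fewer cells that make it cannot be told apart. Among 5 marker genes of the line, PAX2 stayed at 6 to 11 units and the summed level of the 5 was 3416 to 3484 with insulin and 8619 to 8636 with Torin1, most of it from VIM. The line markers did not move together: VIM, KRT8 and KRT18 rose, while NEFM fell from 183 to 87.3 units. Of 13 markers of blood, connective tissue, endothelium, skin and liver, 9 were analysed, 4 passed the filter (COL1A1, CD14, HBA1 and COL3A1), and the summed level of the 9 was 305 to 372 with insulin and 539 to 559 with Torin1. The 4 moved apart: the monocyte marker CD14 fell from 88.7 to 4 units and the haemoglobin gene HBA1 from 22.7 to 1.67, while the collagen genes COL1A1 and COL3A1 rose from 214 to 497 and from 5 to 34.3. The leukocyte marker PTPRC and the T cell marker CD3E read 0 or 1 in each library, and the part of any other cell type in the results was not tested.

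Carrier mRNAs moved in both directions. A gene was tested when at least 3 libraries held 10 units or more, and was called when limma's Benjamini-Hochberg adjusted p was below 0.05 over all 13842 genes tested. Among the 44 members tested, 18 were higher and 20 were lower with Torin1, and 6 were not called. Over all tested genes 86.0% were called, 43.4% higher and 42.5% lower, so the members' calls were about as frequent as those of any gene. Of the members, limma's treat test of changes larger than 1.5-fold called 12 higher and 15 lower, against 25.0% higher and 22.5% lower of all genes. The 3 values of one condition lay wholly above or below those of the other in 39 of 44 members, where 86.3% of all genes did so. Members had a median log2 fold change of 0.04, beside 0.02 over all genes. Their median absolute log2 fold change was 0.96, beside 0.74. SLC25A18 and SLC25A41 passed the filter through the insulin libraries alone, and SLC25A48 and SLC25A21-AS1 through the Torin1 libraries alone. Among the 40 carriers with 10 units or more in every library, 16 were higher, 18 lower and 6 not called. SLC25A2, SLC25A31, SLC25A34, SLC25A47 and SLC25A52 stayed below the filter, with at most 9 units in any library, and were not tested.

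**Figure D1:**
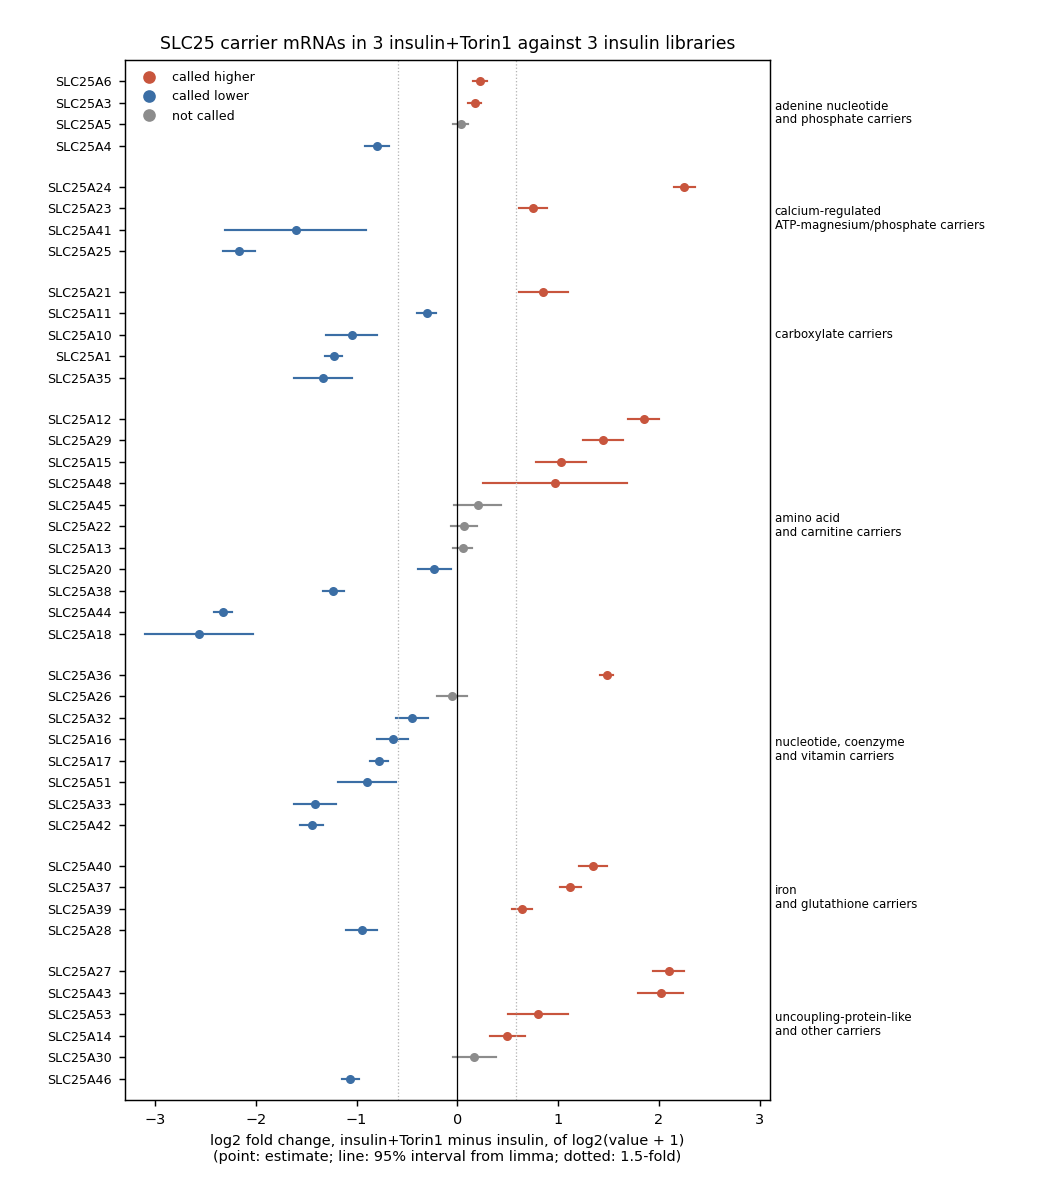
Log2 fold change of 42 of the 43 tested carrier genes (x axis, Torin1 minus insulin, on log2 of the value plus 1; 3 libraries against 3) with its 95% interval from limma, grouped by transported solute. Points run from -2.57 for SLC25A18 to 2.25 for SLC25A24, and most solute groups hold points on both sides of 0.

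The adenine nucleotide carriers, which exchange cytosolic ADP for ATP made in the matrix, and the phosphate carrier SLC25A3 stayed within 1.5-fold, except for SLC25A4. SLC25A6 read 6824, 6342 and 6326 units with insulin and 7577, 7344 and 7843 with Torin1, a log2 fold change of 0.22. SLC25A5 read 2774, 2546 and 2707 with insulin and 2782, 2714 and 2710 with Torin1, and its log2 fold change of 0.03 was not called (95% interval -0.04 to 0.11). SLC25A3, which brings in the phosphate for ATP synthesis, read 5964, 5820 and 6074 with insulin and 6678, 6612 and 6823 with Torin1. The Torin1 values of SLC25A6 and SLC25A3 lay above all their insulin values, while those of SLC25A5 overlapped. SLC25A4, the adenine nucleotide carrier best known from heart and muscle, was lower. Its values were 954, 1118 and 1098 units with insulin and 604, 592 and 621 with Torin1, which is 1.74-fold lower (log2 fold change -0.80, 95% interval -0.92 to -0.68). Some of these genes have near-identical processed copies in the genome, and SLC25A6 lies in the region shared by the X and Y chromosomes. How the authors assigned such reads is not given in the sources used here. The values of such genes are uncertain to that extent.

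The calcium-regulated ATP-magnesium/phosphate carriers set the total adenine nucleotide content of the matrix and respond to cytosolic calcium through EF-hand domains (SLC25A41 lacks these). All 4 were called, 2 higher and 2 lower, where 86.0% of all genes were called, 43.4% higher and 42.5% lower. SLC25A24 read 380, 382 and 418 units with insulin and 1846, 1953 and 1834 with Torin1. It was 4.77-fold higher, the largest rise of any carrier (log2 fold change 2.25 ± 0.05 SE, limma adjusted p = 3.54e-21). SLC25A25 read 666, 669 and 592 with insulin and 143, 140 and 143 with Torin1. It was 4.52-fold lower (log2 fold change -2.17 ± 0.08 SE, limma adjusted p = 1.00e-17). SLC25A23 had 306 ± 9.81 units (SD, n = 3) with insulin and 517 ± 28.1 with Torin1, a log2 fold change of 0.75. SLC25A41 was scarce, with 17, 19 and 22 units against 6, 5 and 6, and fell by 1.61 on the log2 scale. Its annotated body overlaps that of SLC25A23 on chromosome 19, so reads in the overlap could belong to either. Within each library the log2 ratio of SLC25A24 to SLC25A25 was -0.81, -0.81 and -0.50 with insulin and 3.68, 3.79 and 3.67 with Torin1. Such a ratio does not depend on how libraries are scaled. The pairs compared in this way were picked with their values in view, so the ratios are given without a test.

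Among the carboxylate carriers, 4 of the 5 tested fell and 1 rose. Beyond 1.5-fold 3 were lower and 1 was higher. Of all genes 42.5% were called lower, and 22.5% lower beyond 1.5-fold. SLC25A1, the citrate carrier that exports citrate for fatty acid and sterol synthesis, read 3314, 3102 and 3006 units with insulin and 1333, 1319 and 1372 with Torin1. It was 2.34-fold lower, with a log2 fold change of -1.23 (95% interval -1.31 to -1.14, limma adjusted p = 2.55e-18). SLC25A10, the dicarboxylate carrier for malate and succinate, read 201, 200 and 227 with insulin and 94, 88 and 123 with Torin1 (log2 fold change -1.05). SLC25A35, a carrier of uncertain substrate, fell by 1.33 on the log2 scale. The oxoglutarate-malate carrier SLC25A11 of the malate-aspartate shuttle fell by 0.30, within 1.5-fold. SLC25A21, which carries oxoadipate from lysine and tryptophan breakdown, was 1.80-fold higher, with 106 ± 14.6 units against 191 ± 6.43. Its antisense partner SLC25A21-AS1, whose body overlaps the 5′ end of the gene on chromosome 14, read 9, 7 and 6 units with insulin and 55, 63 and 57 with Torin1. That was the largest rise of all members (log2 fold change 2.85, 95% interval 2.31 to 3.38), but whether the authors' counting used strand is not given in the sources used here, so reads of the overlap cannot be assigned to either.

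The amino acid and carnitine carriers divided into 4 higher, 4 lower and 3 not called among 11 tested. Shares over all tested genes were 43.4% higher and 42.5% lower. SLC25A44, which imports branched-chain amino acids, read 2711, 2719 and 2578 units with insulin and 508, 542 and 547 with Torin1. It was 5.01-fold lower (log2 fold change -2.32 ± 0.04 SE, limma adjusted p = 2.51e-22). The 2 glutamate carriers differed. SLC25A18 read 49, 62 and 56 with insulin and 8, 11 and 7 with Torin1, a log2 fold change of -2.57 with the wide 95% interval of -3.10 to -2.03. SLC25A22 read 458, 444 and 441 with insulin and 449, 484 and 476 with Torin1, and was not called (log2 fold change 0.07, 95% interval -0.06 to 0.20).

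The aspartate-glutamate carriers, whose exchange drives the malate-aspartate shuttle, differed as well. SLC25A12 read 165, 153 and 158 units with insulin and 597, 559 and 570 with Torin1, or 3.63-fold higher (log2 fold change 1.85, 95% interval 1.70 to 2.01). SLC25A13, also called citrin, read 979, 955 and 1061 with insulin and 1027, 1052 and 1024 with Torin1, and its log2 fold change of 0.05 was not called (95% interval -0.05 to 0.15). SLC25A38, the glycine importer that supplies haem synthesis, read 1001, 1002 and 1001 with insulin and 417, 439 and 423 with Torin1. It was thus 2.35-fold lower, and its insulin libraries differed by 1 unit only. The basic amino acid carrier SLC25A29 had 185 ± 32.1 units with insulin and 502 ± 27.0 with Torin1, and the ornithine carrier SLC25A15 of the urea cycle 95 ± 12.1 and 194 ± 15.7, with log2 fold changes of 1.45 and 1.03. SLC25A20, the carnitine-acylcarnitine carrier of fatty acid oxidation, fell by 0.23. That call was lost without insulin replicate 3 (limma adjusted p = 0.0633) and with equal library totals (0.223). SLC25A48 had 9 ± 1 and 19.7 ± 7.77 units, and its rise was not called without Torin1 replicate 1 or 2 (limma adjusted p = 0.0692 and 0.0989). SLC25A45 had a log2 fold change of 0.20 and was not called.

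**Figure D2:**
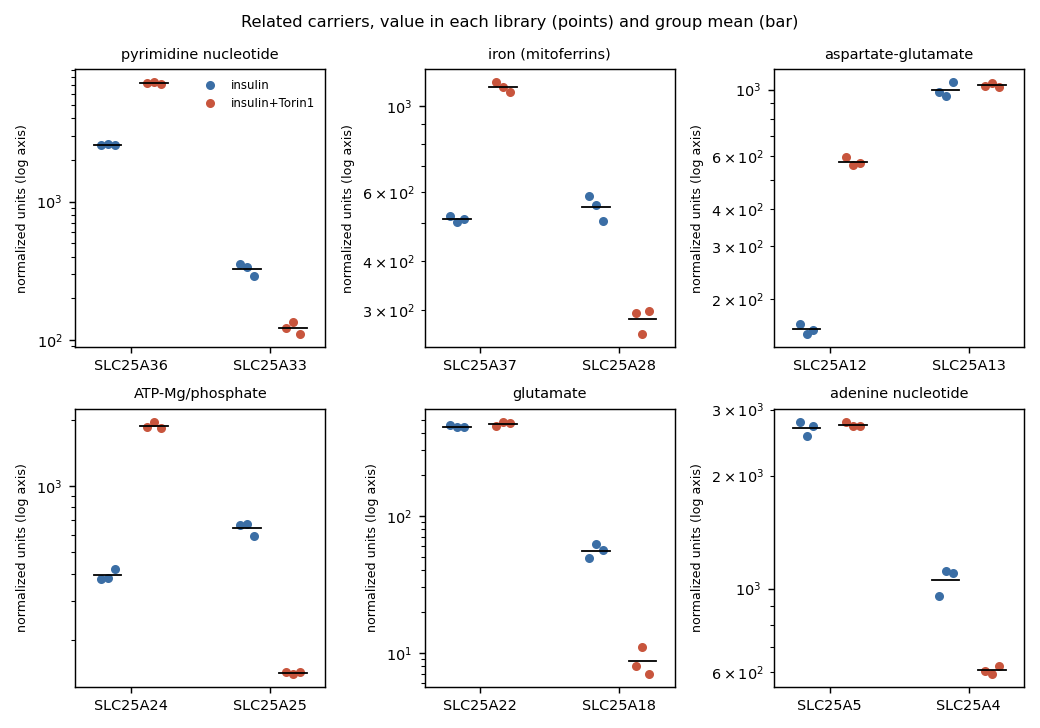
Normalised units (log axes) of 6 pairs of related carriers in each of the 3 insulin and 3 insulin+Torin1 libraries (points), with group means as bars. In the pyrimidine nucleotide, mitoferrin and ATP-magnesium/phosphate pairs one gene is higher and the other lower with Torin1, and SLC25A13, SLC25A22 and SLC25A5 overlap between conditions while their partners do not.

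Among carriers of nucleotides, coenzymes and vitamins, 7 of the 9 tested fell, 1 rose and 1 was not called. Their median log2 fold change was -0.64. Beyond 1.5-fold 4 were lower and 1 was higher. Of all genes 42.5% were called lower, and 22.5% lower beyond 1.5-fold. Of the 7 falls, 1 was not called under some alternatives. The riser was SLC25A36, which with SLC25A33 brings pyrimidine nucleotides into the matrix for mitochondrial DNA and RNA synthesis. SLC25A36 read 2582, 2593 and 2553 units with insulin and 7175, 7317 and 7124 with Torin1, 2.80-fold higher (log2 fold change 1.48 ± 0.03 SE, limma adjusted p = 8.57e-22). SLC25A33, known as an insulin-responsive gene, read 351, 338 and 292 with insulin and 122, 135 and 110 with Torin1, 2.67-fold lower (log2 fold change -1.41, 95% interval -1.62 to -1.20). The log2 ratio of SLC25A36 to SLC25A33 was 2.88, 2.94 and 3.12 with insulin and 5.87, 5.75 and 6.004 with Torin1, so the groups were apart by 2.90.

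SLC25A42, the coenzyme A carrier, read 1085, 1103 and 1087 units with insulin and 403, 380 and 418 with Torin1, a log2 fold change of -1.45 (95% interval -1.56 to -1.34). SLC25A26 imports S-adenosylmethionine, which is also the methyl donor for m6A. It read 317, 303 and 303 with insulin and 298, 305 and 286 with Torin1, and was not called (log2 fold change -0.05, 95% interval -0.21 to 0.10, and 0.07 with equal library totals). SLC25A32, the carrier for folate and FAD, read 339, 331 and 372 with insulin and 243, 256 and 263 with Torin1, and fell by 0.45. Further carriers of the list were lower: SLC25A51, which imports NAD, by 0.90 on the log2 scale, the peroxisomal SLC25A17 by 0.78 and SLC25A16 by 0.64.

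Promoter sequences of this nucleotide pair and of SLC25A42 were taken from RefSeq on build GRCh38.p14, because the pair holds the same motifs while its mRNAs moved in opposite directions, and because SLC25A42 holds the most CCAAT boxes of any member. Each is printed 5′ to 3′ on the gene's strand, here the plus strand, from 250 nt before to 50 nt after the annotated start, with the E-box CACGTG and the CCAAT box (ATTGG on the other strand) in capitals. The windows are chr1:9539215-9539514 for SLC25A33, chr3:140941586-140941885 for SLC25A36 and chr19:19063744-19064043 for SLC25A42.
SLC25A33: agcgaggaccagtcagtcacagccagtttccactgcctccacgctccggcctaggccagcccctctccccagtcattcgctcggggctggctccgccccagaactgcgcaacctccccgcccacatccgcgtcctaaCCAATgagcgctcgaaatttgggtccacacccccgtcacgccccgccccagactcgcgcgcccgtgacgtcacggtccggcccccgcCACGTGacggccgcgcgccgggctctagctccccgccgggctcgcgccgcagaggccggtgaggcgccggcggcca
SLC25A36: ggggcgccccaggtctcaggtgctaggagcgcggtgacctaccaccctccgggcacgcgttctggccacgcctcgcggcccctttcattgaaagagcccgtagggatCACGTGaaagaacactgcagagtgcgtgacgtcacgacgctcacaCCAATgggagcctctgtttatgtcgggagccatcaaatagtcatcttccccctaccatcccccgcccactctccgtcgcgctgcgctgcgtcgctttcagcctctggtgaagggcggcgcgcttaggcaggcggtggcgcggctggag
SLC25A42: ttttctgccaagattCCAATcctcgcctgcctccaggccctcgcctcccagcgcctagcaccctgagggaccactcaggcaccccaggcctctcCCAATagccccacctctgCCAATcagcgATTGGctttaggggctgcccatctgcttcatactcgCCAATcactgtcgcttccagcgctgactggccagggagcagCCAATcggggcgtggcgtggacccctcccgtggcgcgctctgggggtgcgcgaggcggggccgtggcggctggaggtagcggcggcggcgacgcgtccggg
SLC25A33 and SLC25A36 each held 1 E-box and 1 CCAAT box, and SLC25A42 held 6 CCAAT boxes and no E-box.

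RefSeq gave 52 promoter windows for 41 members, some with several starts, and 6 motifs were searched on both strands, none of which contains another. E-boxes (CACGTG) were in 17.3% of member windows and 8.60% of the 18357 windows of all genes in the table. The ETS motif CCGGAAG was in 21.2% and 13.7%, and CCAAT in 44.2% and 34.3%. The motif GCATGCGC of nuclear respiratory factor 1 was in 0 of 52 windows, which allows up to 6.85% (exact binomial), and in 3.90% of all windows. The ATF4 composite motif TGATGNAA and the sterol motif TCACNCCAC were each in 1.92% of member windows, beside 2.41% and 1.11%. The 95% intervals of the member shares were 8.23% to 30.3% for the E-box, 11.1% to 34.7% for ETS and 30.5% to 58.7% for CCAAT. All these limits treat windows as independent. Some windows of SLC25A22 and SLC25A26 overlap, and SLC25A6 has the same window on X and Y, so the limits are too narrow to that extent. The 9 members with an E-box comprised 1 higher mRNA (SLC25A36), 4 lower (SLC25A33, SLC25A38, SLC25A46 and SLC25A51), 3 not called and 1 not tested. Those with CCAAT comprised 8 higher, 9 lower, 3 not called and 1 not tested, and those with ETS 2, 6, 2 and 1. The shares called over all tested genes, whatever their motifs, were 43.4% higher and 42.5% lower. A match describes letters in the window only, and a link between motif and direction was not tested.

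Of the 4 iron and glutathione carriers, 3 were called higher and 1 lower, and beyond 1.5-fold 2 were higher and 1 lower. Of all genes 43.4% were called higher, and 25.0% higher beyond 1.5-fold. The mitoferrins import iron for haem and iron-sulphur clusters. SLC25A37, mitoferrin-1, read 523, 505 and 513 units with insulin and 1152, 1121 and 1088 with Torin1, 2.18-fold higher (log2 fold change 1.12, 95% interval 1.02 to 1.23). SLC25A28, mitoferrin-2, read 586, 556 and 507 with insulin and 295, 260 and 299 with Torin1, 1.93-fold lower (log2 fold change -0.95, 95% interval -1.10 to -0.79). Their log2 ratio was -0.16, -0.14 and 0.02 with insulin and 1.96, 2.10 and 1.86 with Torin1, so the ratio rose by 2.07 on the log2 scale and the groups did not overlap. The glutathione carriers rose together. SLC25A39 read 940, 880 and 1002 with insulin and 1414, 1473 and 1521 with Torin1 (log2 fold change 0.64, or 1.56-fold, called but not in the test beyond 1.5-fold). SLC25A40 had 277 ± 22.3 units with insulin and 704 ± 13.0 with Torin1, a log2 fold change of 1.35.

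Among the uncoupling-protein-like and other carriers, 4 rose, 1 fell and 1 was not called, beside 43.4% of all genes called higher and 42.5% lower. Beyond 1.5-fold 2 were higher and 1 lower, where 25.0% of all genes were higher and 22.5% lower. SLC25A27, also named UCP4 and best known from brain, read 150, 170 and 163 units with insulin and 715, 718 and 645 with Torin1, 4.30-fold higher (log2 fold change 2.10, limma adjusted p = 1.51e-17). SLC25A43, a carrier of uncertain substrate, read 72, 92 and 94 with insulin and 360, 347 and 340 with Torin1, 4.06-fold higher. SLC25A14, also named UCP5, had a log2 fold change of 0.50 and SLC25A53 one of 0.80 (1.74-fold), and neither was called in the test beyond 1.5-fold. SLC25A46, the outer membrane member that acts in mitochondrial fusion and fission, read 2466, 2720 and 2630 with insulin and 1277, 1254 and 1208 with Torin1, 2.09-fold lower (log2 fold change -1.06, 95% interval -1.15 to -0.98). SLC25A30 did not overlap between groups (133 to 149 and 153 to 166) but was not called, with a log2 fold change of 0.17 as deposited and -0.19 after quantile normalization.

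Genes around the family were read from lists of their own. For comparison with each list, 43.4% of all tested genes were called higher and 42.5% lower. Of the family genes under other symbols, MTCH1, MTCH2 and UCP2 fell by 0.38, 0.17 and 0.40, none beyond 1.5-fold, and UCP3 was not called at -0.46. The import machinery that inserts carriers had 7 of 15 tested genes higher and 8 lower (median log2 fold change -0.21). Its widest changes were in AGK, a kinase that is also a subunit of the TIM22 complex (2.35), the small chaperones TIMM9 (1.99) and TIMM10 (-1.11), the TIM22 subunit TIMM29, listed as C19orf52 (-1.66), and the outer membrane receptor TOMM20 (1.13). TIMM9 and TIMM10, which work as 1 hexamer, thus moved apart: 110 ± 9.61 to 440 ± 17.6 units for TIMM9 and 502 ± 14.0 to 233 ± 22.5 for TIMM10. Other mitochondrial solute channels and transporters had 8 of 20 higher and 10 lower (median -0.08). Wide changes were in GHITM (-2.18), VDAC2 (1.18) and MICU2 (-0.99). Among 11 regulators of mitochondrial biogenesis 4 were higher and 6 lower (median -0.16). PPARGC1B fell by 1.88 and its partner ESRRA by 1.57, while NRF1 and TFAM rose by 1.00 and 0.73.

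The m6A data were 1 list of sites per condition, each position given once with the replicate it was taken from, the reads over it, the reads with a substitution, and the 5 bases around it. There was no second list per condition, so site numbers carry no replicate test. Members were matched by gene body and strand on hg38, using RefSeq gene bounds. The strand came from the promoter table for 41 members, from the strand of most m6A sites within the bounds that lay outside other gene bodies for 6, and was unknown for 2, which had no sites on either strand. Whether a site is exonic or in a UTR could not be read from gene bounds, so distance to the gene's 3′ end is given instead. The insulin list held 96671 sites in all, of which 50656 were listed under replicate 1, 39670 under replicate 2 and 6345 under replicate 3. The Torin1 list held 63578, of which 56298, 1552 and 5728 were. Replicate 2 thus gave a large part of the insulin list and little of the Torin1 list, and counts are given below in full and for replicate 1.

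Member genes held 226 sites in 37 genes with insulin and 148 sites in 32 genes with Torin1. Under replicate 1 alone they held 120 and 128. The 2 lists shared 64 member positions, 28.3% of the insulin sites and 43.2% of the Torin1 sites, beside 30.5% and 45.4% for sites in all genes with a known strand. In 10 members there was no site in either list, SLC25A6, SLC25A12, SLC25A14 and SLC25A18 among them. SLC25A6 lies in the region shared by the X and Y chromosomes. How reads there were assigned is not given in the sources used here, so its lack of listed sites is uncertain to that extent. Inside another gene, on the same strand or of unknown strand, lay 13 member sites (10 in SLC25A51 and 3 in SLC25A15). The sequence GGAC opened the 5 bases at 37.2% of member sites with insulin (exact 95% interval 30.9% to 43.8%) and at 33.1% with Torin1, beside 31.0% and 32.7% in all genes. Sites within 1000 nt of the gene's end made up 29.6% (23.8% to 36.1%) of member sites with insulin and 18.9% (13.0% to 26.2%) with Torin1, beside 18.4% and 19.5%. Of the member sites, 61.9% with insulin and 60.8% with Torin1 rested on 1 substituted read.

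**Figure D3:**
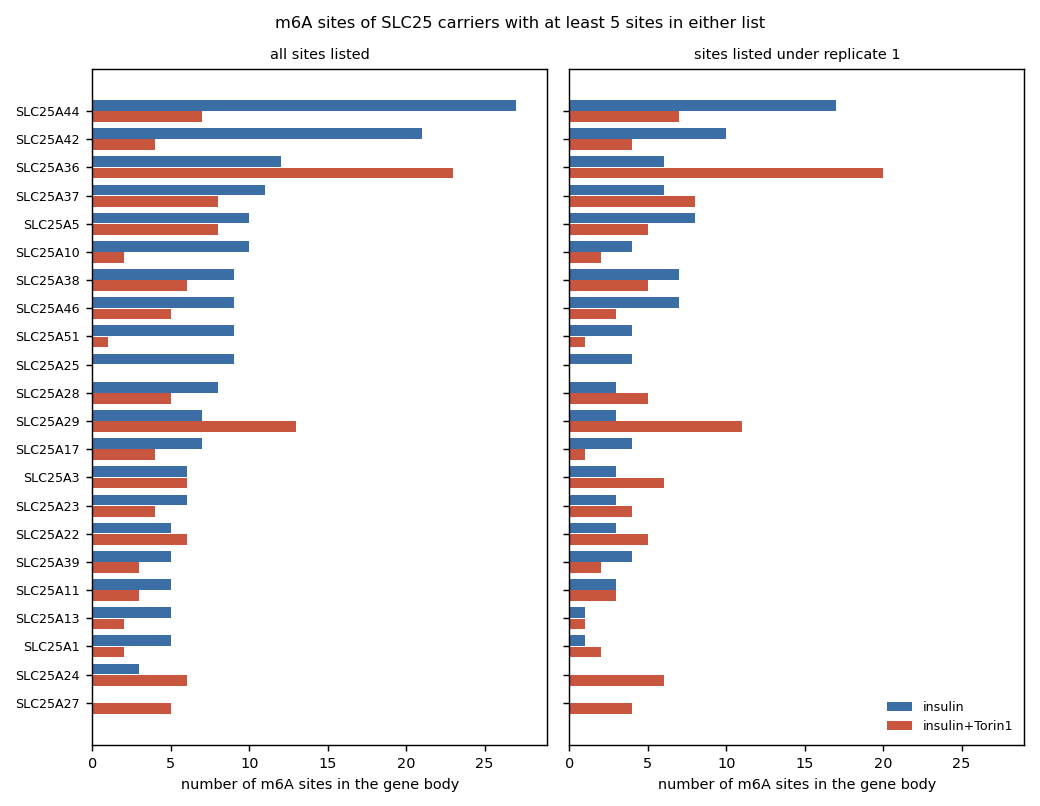
Number of m6A sites in the gene body (x axes) of 22 members with at least 5 sites in either list, with all listed sites on the left and those under replicate 1 on the right. SLC25A44 and SLC25A42 hold the most sites with insulin (27 and 21) and SLC25A36 the most with Torin1 (23).

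SLC25A44 (chr1:156194104-156212796, plus strand) held 27 sites with insulin and 7 with Torin1, and 17 and 7 under replicate 1. All 7 of its Torin1 positions were also in the insulin list. Its insulin sites lay in 2 main stretches, from 12415 to 12910 nt and within 2543 nt of the gene's end, and 7 of 57 reads were substituted at the best covered of the upstream group. SLC25A42 (chr19:19063994-19113030, plus strand) held 21 and 4 sites, and 10 and 4 under replicate 1. SLC25A25 (chr9:128068232-128109245, plus strand) held 9 and 0 sites, 4 and 0 under replicate 1, and 7 of the 9 lay within 1051 nt of its end. The mRNAs of these 3 genes were 2.73-fold to 5.01-fold lower with Torin1, and site numbers are not corrected for the mRNA level. SLC25A10 went from 10 to 2 sites and SLC25A51 from 9 to 1, all 10 of the latter inside another gene, on the same strand or of unknown strand.

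SLC25A36 (chr3:140941836-140980995, plus strand) moved the other way, from 12 to 23 sites, and from 6 to 20 under replicate 1, with 8 positions shared. Between 10352 and 24416 nt from its end there were 10 sites with Torin1 and 0 with insulin, each with at most 8 reads. SLC25A29 (chr14:100278567-100306444, minus strand) went from 7 to 13 sites, and from 3 to 11 under replicate 1. SLC25A24 (chr1:108134043-108200343, minus strand) went from 3 to 6, and from 0 to 6. SLC25A27 (chr6:46652975-46678190, plus strand) had 0 sites with insulin and 5 with Torin1, among them a GGACT at chr6:46653025-46653025 with 4 of 52 reads substituted, 50 nt into the gene. SLC25A21-AS1 had 0 and 3 sites, all GGACA. The mRNAs of these 5 genes were 2.72-fold to 7.95-fold higher with Torin1.

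Further members also had at least 5 sites in one list. SLC25A37 went from 11 to 8, SLC25A5 from 10 to 8, SLC25A38 from 9 to 6, SLC25A46 from 9 to 5 and SLC25A28 from 8 to 5. SLC25A17 went from 7 to 4, SLC25A23 from 6 to 4, and SLC25A3 had 6 in each list. SLC25A1 and SLC25A13 went from 5 to 2, SLC25A11 and SLC25A39 from 5 to 3, and SLC25A22 from 5 to 6. Under replicate 1 some of these turned, as for SLC25A37 (6 and 8), SLC25A28 (3 and 5) and SLC25A3 (3 and 6).

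Site numbers were also counted by the direction of the mRNA. Members whose mRNA was called higher went from 58 to 76 sites (29 to 69 under replicate 1), with more replicate 1 sites in 10 genes and fewer in 3. In the full lists these were 7 and 6 genes, so the direction of the higher members rested on replicate 1. Members called lower went from 144 to 52 (78 to 44 under replicate 1), with more replicate 1 sites in 5 genes and fewer in 12, and with more in 0 and fewer in 17 in the full lists. Those not called went from 23 to 20 (13 to 15). The full lists as a whole went from 96671 to 63578 sites, with 39670 and 1552 under replicate 2. Full-list counts, those of the lower members included, carry that difference. The same counts over all genes are not given here. Over the 36 tested members with a replicate 1 site, the change in replicate 1 sites and the mRNA log2 fold change had a Pearson correlation of 0.656 and a Spearman correlation of 0.675, given as a description because all genes come from the same libraries. A site can be listed only where reads cover it, and how far methylation itself moved was not tested by site numbers.

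**Figure D4:**
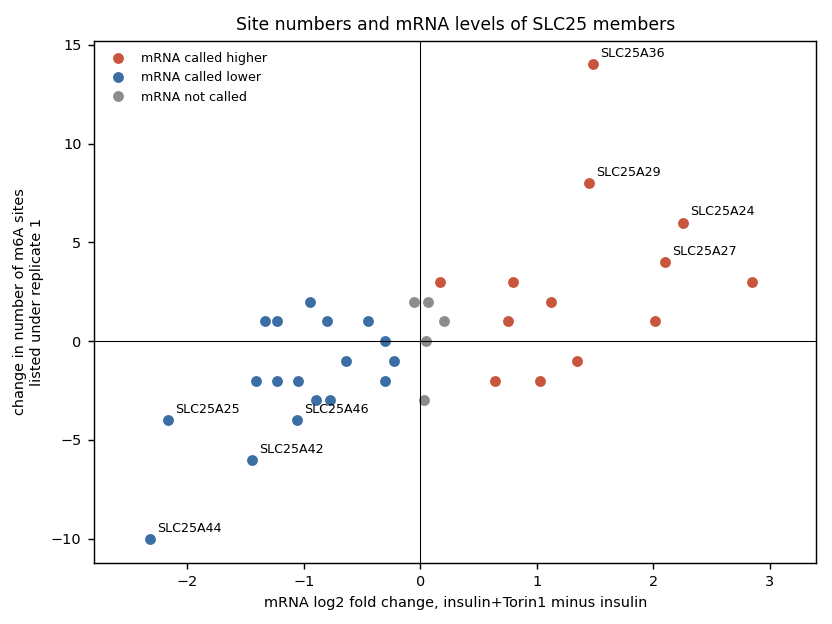
Change in the number of m6A sites listed under replicate 1 (y axis, Torin1 minus insulin) against the mRNA log2 fold change (x axis) for 36 members, 1 point each. SLC25A36 gains 14 sites and SLC25A44 loses 10, and points in the upper right and lower left outnumber the others.

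The share of substituted reads was compared at positions in both lists. Such a position has at least 1 substituted read in each, so sites lost or gained outright are not among them. Of the 64 shared member positions, 47 had at least 10 reads in each list. Fisher's exact test, two-sided and adjusted over all 16496 such positions, compares the listed libraries and not the conditions, since each position carries the reads of 1 replicate. It called 0 of the 47 (lowest adjusted p = 0.583), and called 0.242% of all positions. Unadjusted, 2 of the 47 had p below 0.05. The share was higher with Torin1 at 22 positions and lower at 25, with a median difference of -0.386 percentage points.

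The shared position with the most reads was a GGACT in SLC25A36 at chr3:140976464-140976464, with 3 of 66 reads substituted (4.55%) with insulin and 1 of 238 (0.420%) with Torin1 (Fisher's exact test p = 0.0333, adjusted 0.583). SLC25A3 had a GGACT at chr12:98601549-98601549 with 12 of 83 reads (14.5%) and 20 of 197 (10.2%). In SLC25A36 the AGACT at chr3:140973831-140973831 had 1 of 52 (1.92%) and 6 of 178 (3.37%). SLC25A5 had a GGACA at chrX:119469860-119469860 with 3 of 57 (5.26%) and 8 of 166 (4.82%), and an AGACT at chrX:119469716-119469716 with 1 of 57 (1.75%) and 6 of 112 (5.36%). Shares at these sites ran from 0.420% to 14.5% over both lists. SLC25A37 had a position with 4 of 21 reads (19.05%) and 20 of 100 (20%), so the share barely differed while its reads rose. In SLC25A29 the GGACT at chr14:100292497-100292497 had 1 of 22 (4.55%) and 2 of 110 (1.82%). SLC25A3 had a further shared position with 1 of 8 reads (12.5%) and 2 of 116 (1.72%), which the coverage minimum left out, and SLC25A36 an AAACA with 2 of 47 (4.26%) and 1 of 59 (1.69%). In SLC25A11 a GGACT had 1 of 39 (2.56%) and 1 of 57 (1.75%). Outside the sites with most reads, the GGACA of SLC25A38 at chr3:39397071-39397071, 280 nt from the gene's end, had the highest share with insulin of the tested positions, 16 of 55 reads (29.1%), and 5 of 28 (17.9%) with Torin1.

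**Figure D5:**
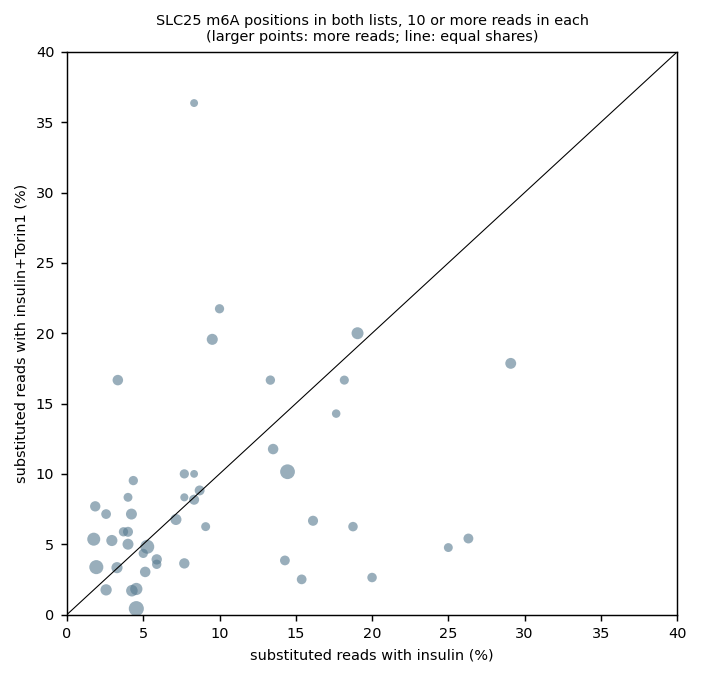
Percent of substituted reads with insulin (x axis) and with insulin+Torin1 (y axis) at the 47 member positions in both lists with at least 10 reads in each, point area growing with the reads. Points scatter on both sides of the line of equal shares, 22 above and 25 below, and the widest departures are small points with few reads.

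Few sites fell in promoter windows, which end 50 nt into the transcript. There were 6, and at each the 5 bases given by the authors matched the reference. The best covered lay at chr22:19178739-19178739 on the minus strand, 3 nt outside the annotated body of SLC25A1, with 3 of 161 reads substituted in the Torin1 list. The other one shown lay at chr3:39383410-39383410 on the plus strand in SLC25A38, with 2 of 13. Both are printed 5′ to 3′ from RefSeq with the 5 bases in capitals, to show sites at the start of mRNAs that fell.
SLC25A1: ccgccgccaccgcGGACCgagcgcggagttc
SLC25A38: cccgggatacacaGAACCtcatctc
Neither position was in the insulin list. A further window site lay in SLC25A28, also called lower, and was in the insulin list, with 1 of 3 reads substituted.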

How the data were processed

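The 17520-gene expression table holds 6 input libraries, 3 per condition. Its values are a score: as the grid of whole numbers in the deposited file shows, the authors divided read counts by a factor per library and rounded them. Per the submitters' processing notes, DESeq, DESeq2 1.22.2, STAR and BWA 0.7.1 were used with build hg38, with no step given for each. In the deposited m6A lists the fraction of a site is its substituted reads divided by its reads, and the site caller is not given in the sources used here. Because the values were not raw counts, limma 3.58.1 (R 4.3.3, trend, no block) was fitted to log2(value + 1) of all 13842 genes with at least 10 units in at least 3 libraries, with Benjamini-Hochberg adjustment, and a fold change on this scale understates that of low genes. The test of size was limma's treat at 1.5-fold. Intervals are 95% and cover counting error only for shares. Fisher's exact tests used scipy 1.17.1. Values in every library are given for the 6 largest rises and falls, the highest member of each solute group and a list of carriers of known roles, and the members, pairs and lists were chosen with earlier results of these data known. Alternatives changed the scaling, pseudocount, filter, variance model, libraries and, for sites, the replicate, substitution and coverage minimums. The values of 1 member and 1 other gene are not reported here, but both count in the totals. Protein sequences were not analysed here, and site sequences on chromosome 8 are not printed.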

Additional observations from a re-analysis of the deposited data

How the results depend on the processing

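Scaling moved the centre of the family. The members' median log2 fold change was 0.168 with library totals made equal and -0.171 after quantile normalization, while the median of all genes moved from 0.02 to 0.14 and to 0.0004. Members called were 23 higher and 18 lower with equal totals and 20 and 21 after quantile normalization. No called member changed sign under any alternative run. Among those not called, SLC25A26 turned to 0.0711 with equal totals, SLC25A30 and SLC25A45 to -0.19 each after quantile normalization, and SLC25A5 to -0.0027 without insulin replicate 2, the lowest of its values without 1 library, which reached 0.0591. With equal totals SLC25A5, SLC25A13, SLC25A22, SLC25A30 and SLC25A45 became called higher, and after quantile normalization SLC25A5 (0.34) and SLC25A13 (0.21) higher and SLC25A26 (-0.25) lower. Leaving out 1 library gave 17 to 18 members higher and 18 to 20 lower. Same-numbered input libraries of the 2 conditions did not deviate together (r = -0.0234, 0.00972 and -0.00399), and no library of the 3 pairs is tied to its number by the labels, so the numbers were not used as pairs. The replicate block gave 18 members higher and 20 lower, and 5983 and 5867 of all genes. Not every library correlated best with its own number.

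Member site numbers depend on the list's rules. The insulin list held 120 member sites under replicate 1 only, 86 with at least 2 substituted reads and 36 with at least 3, and 106 to 207 without 1 replicate. The Torin1 list held 58 and 31 with at least 2 and 3 substituted reads, and 20 to 141 without 1 replicate, 20 being without replicate 1. Shared positions were 37 under replicate 1 in both, 16 and 7 with at least 2 and 3 substituted reads, and 1 to 58 without 1 replicate. A difference of at least 0.2 in the substituted fraction, with no test, was met by 3 of the 47 shared member positions with at least 10 reads in each list, where Fisher's exact test called 0. A single read was worth 1.03 to 1.71 units in the 5 libraries of expression where the step could be read, so members near 10 units rest on few reads.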

Other observations

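Several members had m6A sites on the strand opposite to the gene within the gene's bounds. SLC25A35 had 13 such sites against 4 on its own strand, SLC25A22 and SLC25A29 had 5 each, SLC25A21 had 5, which include the 3 counted for SLC25A21-AS1, and SLC25A42 had 3. For SLC25A35 the strand was taken from sites outside other genes, so its own-strand number rests on few sites.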
